A study of Mus musculus with 9 samples.

Results

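The 44 genes of the core autophagy machinery were followed through 3 mouse myeloid cell lines. The members were listed by gene symbol: the ATG genes, the initiation complexes and the autophagy receptors. All 44 were found once among the 54347 genes of the table, and all 44 were among the 13082 genes that passed a filter on low counts and were tested. By step of the pathway they comprise 5 genes of the initiation kinase complex, 6 of the phosphatidylinositol 3-kinase (PI3K) complex, 6 for membrane supply and phagophore growth, 7 conjugation enzymes, 4 ATG4 proteases, 5 ATG8 proteins, 5 cargo receptors, 4 mitophagy genes and 2 genes for fusion with lysosomes.

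Autophagy encloses cytoplasm in a double membrane, the autophagosome, and delivers it to lysosomes for breakdown. The ULK kinase complex and a PI3K complex around Beclin 1 start a cup-shaped membrane, the phagophore, which grows while small ubiquitin-like ATG8 proteins are attached to its lipids. Cargo receptors bind both ATG8 proteins and marked cargo, such as ubiquitinated protein aggregates or damaged mitochondria, and are degraded with it. In blood cells the pathway is known for its part in the survival of stem cells and leukemic cells. Messenger RNA levels do not measure autophagic flux, and for receptors that are consumed in the pathway the transcript and the protein can differ.

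Hox-WT and Hox-URE are hematopoietic progenitor lines made from c-Kit+ cells of a wild-type mouse and of a UREd/d mouse, and both are immortalized with an estradiol-dependent Hoxb8 fusion protein. The UREd/d genotype lacks the upstream regulatory element (URE) on both alleles, an enhancer that drives *Spi1*, which encodes the transcription factor PU.1. URE-AML, which the labels call B22, is a blast-like line of the same genotype from the leukemia of a UREd/d mouse. All 3 lines were labelled as grown in IMDM with 20% FCS, 10 ng/ml of IL-3, IL-6 and SCF and 1 µM estradiol, a dose that differs from the one in the study's methods, and stranded poly-A RNA libraries were sequenced, 3 per line. Each genotype and stage is 1 line, so a difference between lines cannot be told apart from a difference between genotypes, and the labels do not say whether libraries came from separate cultures, so p-values measure the spread between libraries only.

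Library totals ran from 20331064 to 28588718 estimated counts, and 3 counts corresponded to 0.104 to 0.153 CPM (counts scaled to a common library size with TMM factors), a floor that covers counting error only. *Spi1* had 96.5 to 110 CPM in Hox-WT, 0 to 0.0414 CPM in Hox-URE and 2.5 to 6.35 CPM in URE-AML. Of the progenitor markers, *Kit* was at 175 ± 15.7 CPM in Hox-WT, 43.0 ± 7.62 CPM in Hox-URE and 97.0 ± 3.67 CPM in URE-AML (SD, n = 3). In the study's flow cytometry both Hox lines expressed c-Kit. All 4 progenitor markers were called lower in Hox-URE than in the Hox-WT line, among them *Cd34* at 926 ± 267 CPM beside 1430 ± 118 CPM and *Myb* at 167 ± 15 CPM beside 299 ± 25.3 CPM, and their sum was 1900 to 2150 CPM in Hox-WT, 821 to 1310 CPM in Hox-URE and 257 to 293 CPM in URE-AML. The part of this in the results was not tested. *Ptprc*, the pan-leukocyte antigen, was at or under 3 counts in every Hox-URE and URE-AML library, and *Cd34* in every URE-AML library. Library 1 of Hox-URE stood apart from the other 2 of its line, where chi-square over genes, divided by its degrees of freedom, was 72.7 and 107, beside 28.7 between libraries 2 and 3. In bulk RNA, fewer cells of a type and less RNA per cell cannot be told apart.

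Hox-URE was set beside Hox-WT to ask which autophagy genes change with loss of the enhancer in progenitors. The 5 cargo receptors were all higher in Hox-URE, from 1.91-fold for *Nbr1* to 8.92-fold for *Optn*, and so were 4 of the 5 ATG8 genes, whereas none of the 11 genes of the initiation and PI3K complexes was called. A gene was called when the edgeR adjusted p was under 0.05 and the fold change over 1.5. In *Ulk2*, *Atg13* and *Rb1cc1* of the initiation complex the adjusted p passed (edgeR, 0.00526, 0.0101 and 0.0103) and the libraries of Hox-URE lay above those of Hox-WT, but the fold changes of 1.48, 1.32 and 1.40 were under the threshold. Of the 44 members 15 were called higher and 2 lower (38.6%), where 37.2% of all genes tested were called, 21.3% upward and 15.9% downward. Members had a median log2 fold change of 0.32, and all genes tested 0. The total share of members called was thus near the background of genes that passed the count filter, and 34.1% of members against 21.3% of genes were called higher. With no filter on low counts 40.9% of members and 23.4% of the 23296 genes then tested were called. The genes added there had low counts, and all 44 members had passed the filter, so these shares compare genes of unlike level. In 26 of the 44 (59.1%) the libraries of the lines did not overlap, against 60.3% of all genes.

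Without library 1 of Hox-URE, 18 members passed as higher in Hox-URE and 1 as lower (43.2%), where 39.0% of all genes tested in that fit were called, 22% upward and 17% downward. *Ulk2*, *Gabarapl2* and *Wipi1* were then also called, and *Atg10* no longer was. Libraries of Hox-URE and Hox-WT with the same number deviated together, and with the replicate number as a block *Wipi1* was called (log2 fold change 0.60, edgeR adjusted p = 0.00710 against 0.0710 without the block). It was called under 6 of 19 alternatives in all, DESeq2 among them (adjusted p = 0.0487).

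The comparison of URE-AML with Hox-WT sets the leukemic line against the wild-type progenitor line. Of the 44 members 6 passed as higher in URE-AML and 3 as lower (20.5%), where 43.2% of all genes tested were called, 23% higher and 20.2% lower. Higher were *Atg9a*, *Atg7*, *Atg10*, *Bnip3*, *Bnip3l* and *Stx17*, and lower were *Ulk1*, *Atg101* and *Gabarapl1*. None of the 5 cargo receptors was called, although *Calcoco1* was under 6 of 19 alternatives, DESeq2 among them. The median log2 fold change of the members was 0.08, beside 0.002 over all genes, and in 24 members (54.5%) the libraries did not overlap, against 67.6% of genes.

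Between the URE-deleted lines, most members that differed were lower in the leukemic one. In URE-AML 5 members were called higher and 14 lower than in the Hox-URE line (43.2%), where 42.7% of all genes were called, 20.3% upward and 22.4% downward. Members had a median log2 fold change of -0.32 and all genes 0, and the libraries of 33 members (75%) did not overlap, against 62.8% of genes. Without library 1 of Hox-URE 6 members were called higher and 17 lower (52.3%), and 43.8% of all genes, 21% upward and 22.8% downward. The 3 comparisons share libraries pairwise, so they are given side by side and are not independent of each other. In all, 8 members were higher in Hox-URE than in the Hox-WT line, lower in URE-AML than in the Hox-URE line, and not called between URE-AML and Hox-WT: *Vmp1*, *Atg4a*, *Map1lc3a*, *Sqstm1*, *Nbr1*, *Optn*, *Tax1bp1* and *Pink1*. They are 18.2% of members, and 6.02% of all genes tested had that pattern of calls, whose first and second parts share the Hox-URE libraries. A further 20 members (45.5%) were not called in any comparison, as were 37.7% of all genes.

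**Figure D1:**
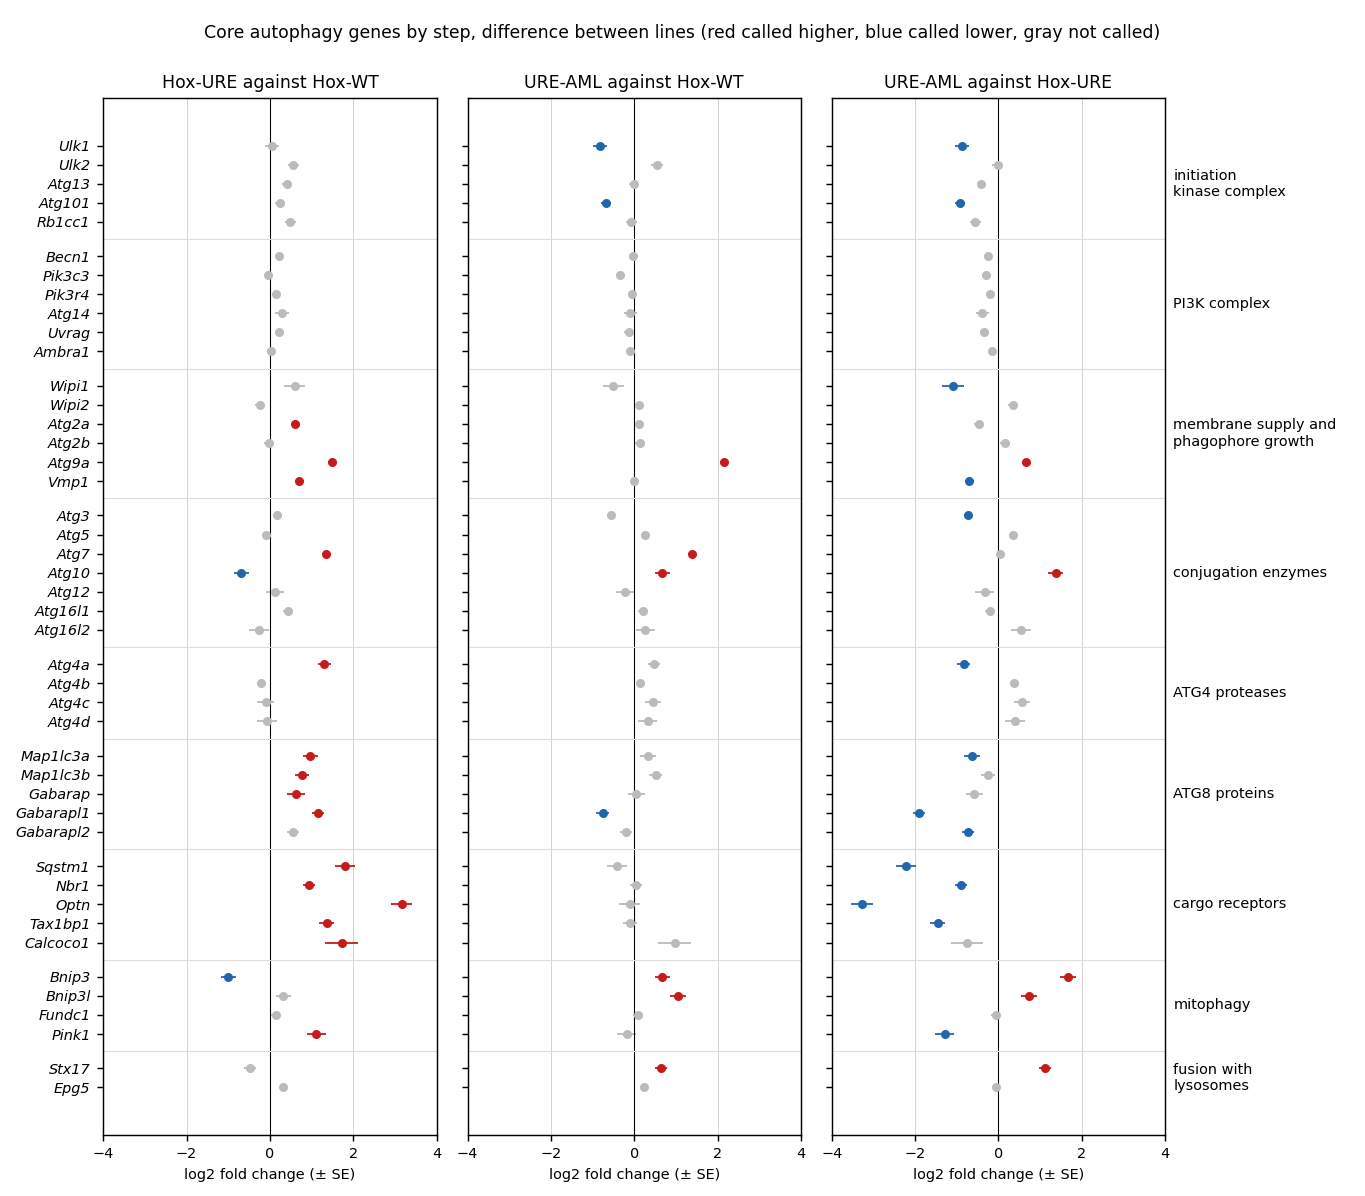
Log2 fold change of each of the 44 members, grouped by step of the pathway, in the 3 comparisons between lines. Points are edgeR estimates with SE, red where called higher, blue where called lower and gray where not called; all 5 cargo receptors are red in Hox-URE relative to Hox-WT, and the 6 PI3K complex genes are gray in each panel.

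In the initiation kinase complex, *Ulk1*, which encodes the kinase that starts autophagosome formation, had 47.3, 55.9 and 53.1 CPM in Hox-WT libraries 1 to 3, 41.5, 62.6 and 58.3 CPM in Hox-URE and 25.9, 35.1 and 27.1 CPM in URE-AML. All URE-AML libraries lay below the 6 others, and the Hox lines overlapped. *Ulk1* was lower in URE-AML than in the Hox-WT line by -0.83 ± 0.17 on the log2 scale (SE, edgeR adjusted p = 0.00187) and than in the Hox-URE line by -0.88 ± 0.17 (edgeR adjusted p = 0.00129). *Ulk1* lies on chromosome 5, where the median over 828 genes tested was 0.18 and 0.23 in the same comparisons. Its paralogue *Ulk2* was not called in any comparison, with 23.2 ± 1.37, 34.2 ± 4.15 and 33.9 ± 5.16 CPM in Hox-WT, Hox-URE and lastly URE-AML.

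*Atg101*, a subunit that stabilizes the complex, had 54.0 to 59.8 CPM in Hox-WT, 63.7 to 76.3 CPM in Hox-URE and 31.7 to 41.4 CPM in URE-AML. It was lower in URE-AML than in the Hox-WT line by -0.67 ± 0.12 and than in the Hox-URE line by -0.92 ± 0.12 on the log2 scale (edgeR adjusted p = 8.26e-04 and 1.04e-04). *Atg101* lies on chromosome 15, where the median log2 fold change over all 511 genes tested was 0.33 in Hox-URE relative to Hox-WT and -0.39 in URE-AML relative to Hox-URE, and the part of this in its difference was not tested. The adaptor genes *Atg13* and *Rb1cc1* were not called, with log2 fold changes of 0.41 and 0.49 in Hox-URE relative to Hox-WT.

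For *Becn1*, *Pik3c3*, *Pik3r4*, *Atg14*, *Uvrag* and *Ambra1*, which encode Beclin 1, the kinase, its scaffold and the partners that direct it, log2 fold changes ran from -0.04 to 0.29 in Hox-URE relative to Hox-WT and from -0.34 to -0.04 in URE-AML relative to Hox-WT. None of the 6 was called in any comparison. *Pik3c3*, the catalytic subunit, had 48.3 to 51.3 CPM in Hox-WT, 45.6 to 52.4 CPM in Hox-URE and 37.4 to 41.0 CPM in URE-AML. Its URE-AML libraries all lay below the others, by a log2 fold change of -0.34 from Hox-WT (edgeR adjusted p = 0.00815), which is under the fold threshold.

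For phagophore growth, *Atg9a* (ENSMUSG00000033124) stood out in both URE-deleted lines. It encodes a lipid scramblase on the vesicles that seed the phagophore, and lies at chr1:75180860-75192196 of GRCm38 on the minus strand. *Atg9a* had 41.3, 43.5 and 40.8 CPM in Hox-WT, 109, 132 and 114 CPM in Hox-URE and 179, 202 and 177 CPM in URE-AML. No 2 lines overlapped, and the order was Hox-WT, Hox-URE, URE-AML. Log2 fold changes were 1.5 ± 0.10 in Hox-URE and 2.15 ± 0.10 in URE-AML relative to Hox-WT (SE, edgeR adjusted p = 1.11e-06 and 4.65e-08), and 0.65 ± 0.10 between the latter lines (edgeR adjusted p = 2.19e-04). It was the only member called higher in all 3 comparisons.

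*Vmp1*, a scramblase of the endoplasmic reticulum needed for phagophore closure, and *Atg2a*, a lipid transfer protein, differed less. *Vmp1* had 96.8, 86.0 and 78.8 CPM in Hox-WT, 162, 131 and 134 CPM in Hox-URE and 87.7, 81.9 and 92.3 CPM in URE-AML. The Hox-URE libraries lay above all others, by 0.71 ± 0.11 on the log2 scale from Hox-WT (edgeR adjusted p = 4.51e-04), and Hox-WT and URE-AML overlapped. *Atg2a* was just over the fold threshold in Hox-URE relative to Hox-WT at 1.52-fold, and was not called with upper-quartile scaling, with library sizes alone or without library 2 of Hox-URE. *Wipi1*, which reads the lipid made by the PI3K complex, had 18.1, 27.8 and 19.8 CPM in Hox-WT, 26.5, 36.6 and 35.9 CPM in Hox-URE and 9.81, 19.0 and 17.6 CPM in URE-AML. Hox-WT overlapped with each of the other lines, and URE-AML lay below Hox-URE at a log2 fold change of -1.09 ± 0.26 (edgeR adjusted p = 0.00403). *Wipi2*, its paralogue, had 48.6, 44.8 and 49.4 CPM in Hox-WT, 44.9, 40.7 and 34.5 CPM in Hox-URE and 50, 54.6 and 48.8 CPM in URE-AML. Neither *Wipi2* nor *Atg2b*, the paralogue of *Atg2a*, was called.

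Among the conjugation enzymes, *Atg7* (ENSMUSG00000030314, chr6:114643097-114860614 of GRCm38, plus strand) was higher in both URE-deleted lines. It is the E1-like enzyme that activates ATG12 and ATG8 proteins. *Atg7* had 51.1, 50.5 and 47.4 CPM in Hox-WT, 116, 122 and 139 CPM in Hox-URE and 126, 135 and 128 CPM in URE-AML. Hox-WT lay below the 6 other libraries, which overlapped. The log2 fold changes relative to Hox-WT were 1.34 ± 0.09 in Hox-URE and 1.39 ± 0.09 in URE-AML (SE, edgeR adjusted p = 1.30e-06 and 5.83e-07), and the difference between these lines was 0.04 ± 0.09 (edgeR adjusted p = 0.697).

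*Atg10* and *Atg3*, the E2-like enzymes for ATG12 and for ATG8 proteins, followed other orders. *Atg10* was lowest in Hox-URE, with 6.15, 6.14 and 6.37 CPM in Hox-WT, 3.17, 3.81 and 4.6 CPM in Hox-URE and 9.53, 11.2 and 9.14 CPM in URE-AML. No 2 lines overlapped, and the log2 fold change was -0.69 ± 0.18 in Hox-URE and 0.68 ± 0.17 in URE-AML relative to Hox-WT (edgeR adjusted p = 0.00821 and 0.00702). *Atg3* was lower in URE-AML than in the Hox-URE line by a log2 difference of -0.73 ± 0.09 (edgeR adjusted p = 7.91e-05). *Atg5*, *Atg12*, *Atg16l1* and *Atg16l2*, whose products form the complex that directs ATG8 to the membrane, were not called in any comparison, and their log2 fold changes lay between -0.34 and 0.54.

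The ATG4 proteases trim ATG8 proteins before attachment and release them afterward. *Atg4a* had 12.4, 12.9 and 13.9 CPM in Hox-WT, 25.1, 36.8 and 35.3 CPM in Hox-URE and 18.2, 19.0 and 17.2 CPM in URE-AML. No 2 lines overlapped, and Hox-URE was higher than Hox-WT by 1.31 ± 0.15 and URE-AML lower than Hox-URE by -0.84 ± 0.15 on the log2 scale (edgeR adjusted p = 4.90e-05 and 6.96e-04). *Atg4b*, *Atg4c* and *Atg4d* were not called in any comparison. *Atg4b* had 72.8, 69.5 and 66.1 CPM in Hox-WT, 65.3, 56.7 and 56.0 CPM in Hox-URE and 77.8, 78.4 and 74.7 CPM in URE-AML, so that it was lowest in Hox-URE. *Atg4c* had 4.95, 6.46 and 4.43 CPM, 5.50, 4.64 and 4.55 CPM, and 6.87, 7.99 and 6.91 CPM in the lines in that order, with URE-AML above the Hox lines. *Atg4d* had 42.7, 29.8 and 35.4 CPM, 47.6, 31.0 and 23.6 CPM, and 39.7, 45.0 and 50.1 CPM, and all lines overlapped. Per length of merged exons, *Atg4a* held 24.8 ± 2.30% of the summed level of the 4 protease genes in Hox-WT, 47.8 ± 9.36% of it in Hox-URE and 27.9 ± 1.24% in URE-AML, while the share of *Atg4b* was 42.3 ± 1.21%, 28.1 ± 2.5% and 38.0 ± 1.38%. The order of the lines was the same without length scaling, where *Atg4a* held 10.6 ± 1.17%, 25.2 ± 6.66% and 12.3 ± 0.663%, but *Atg4b* then held the larger share in each line (56.2 ± 2.09%, 45.4 ± 1.5% and 52.3 ± 2.20%).

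The ATG8 proteins coat the autophagosome membrane and hold cargo receptors. *Gabarapl1* (ENSMUSG00000030161, chr6:129533160-129542346 of GRCm38, plus strand) had 55.1, 61.1 and 64.7 CPM in Hox-WT, 107, 132 and 163 CPM in Hox-URE and 38.5, 32.4 and 35.7 CPM in URE-AML. No 2 lines overlapped, with Hox-URE highest and URE-AML lowest. The log2 fold change was 1.15 ± 0.15 in Hox-URE and -0.76 ± 0.15 in URE-AML relative to Hox-WT, and -1.91 ± 0.15 between the URE-deleted lines (SE, edgeR adjusted p = 1.15e-04, 0.00135 and 2.75e-06).

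The 2 LC3 genes and the other GABARAP genes also had their highest means in Hox-URE. *Map1lc3b*, the LC3 most used as a marker of autophagosomes, had 63.5, 87.7 and 85.4 CPM in Hox-WT, 104, 144 and 154 CPM in Hox-URE and 108, 113 and 118 CPM in URE-AML. It was higher in Hox-URE than in the Hox-WT line by a log2 difference of 0.76 ± 0.16 (edgeR adjusted p = 0.00264), and the URE-deleted lines overlapped. *Map1lc3a* had 6.41 to 8 CPM in Hox-WT, 13.4 to 15.3 CPM in Hox-URE and 7.27 to 12.1 CPM in URE-AML, a log2 fold change of 0.97 ± 0.19 in Hox-URE relative to Hox-WT (edgeR adjusted p = 0.00172).

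*Gabarap* had 174, 202 and 212 CPM in Hox-WT and 206, 315 and 389 CPM in Hox-URE. These libraries overlapped, although the gene was called at a log2 fold change of 0.63 ± 0.21 (edgeR adjusted p = 0.0275). The call was lost without library 2 or 3 of Hox-URE (adjusted p = 0.0765 and 0.116), without any 1 library of Hox-WT (0.0520 to 0.0931) and with library sizes alone, where the fold change was below the threshold. *Gabarapl2* had 41.3, 41.8 and 47.2 CPM in Hox-WT, 49.4, 67.9 and 72.5 CPM in Hox-URE and 34.6, 37.7 and 40.9 CPM in URE-AML, and no library of one line lay within another. It was under the fold threshold between the Hox lines, and was lower in URE-AML than in the Hox-URE line with a log2 difference of -0.74 ± 0.14 (edgeR adjusted p = 0.00134).

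Per length, *Gabarap* was the most abundant ATG8 gene in each line, at 106, 165 and 110 CPM per kb in Hox-WT, Hox-URE and lastly URE-AML. The summed level of the 5 genes was 172 ± 16.2, 288 ± 73.3 and 167 ± 22.6 CPM per kb (SD, n = 3). Within that sum the share of *Gabarapl1* was 17.2 to 17.8% for Hox-WT, 22 to 25.1% for Hox-URE and 9.2 to 12.8% for URE-AML. The share of *Map1lc3b* was 5.50 to 6.61%, 5.74 to 6.52% and 8.11 to 9.61%, so it was separate in URE-AML and overlapped between the Hox lines. Without length scaling it was 18.6 to 21.9%, 19.4 to 21.6% and 26.2 to 29.7%, again separate in URE-AML alone. Shares were compared by an exact two-sided permutation test, which cannot reach p = 0.05 with 3 libraries a line, and its p for the separated shares was 0.1, the smallest it allows.

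**Figure D2:**
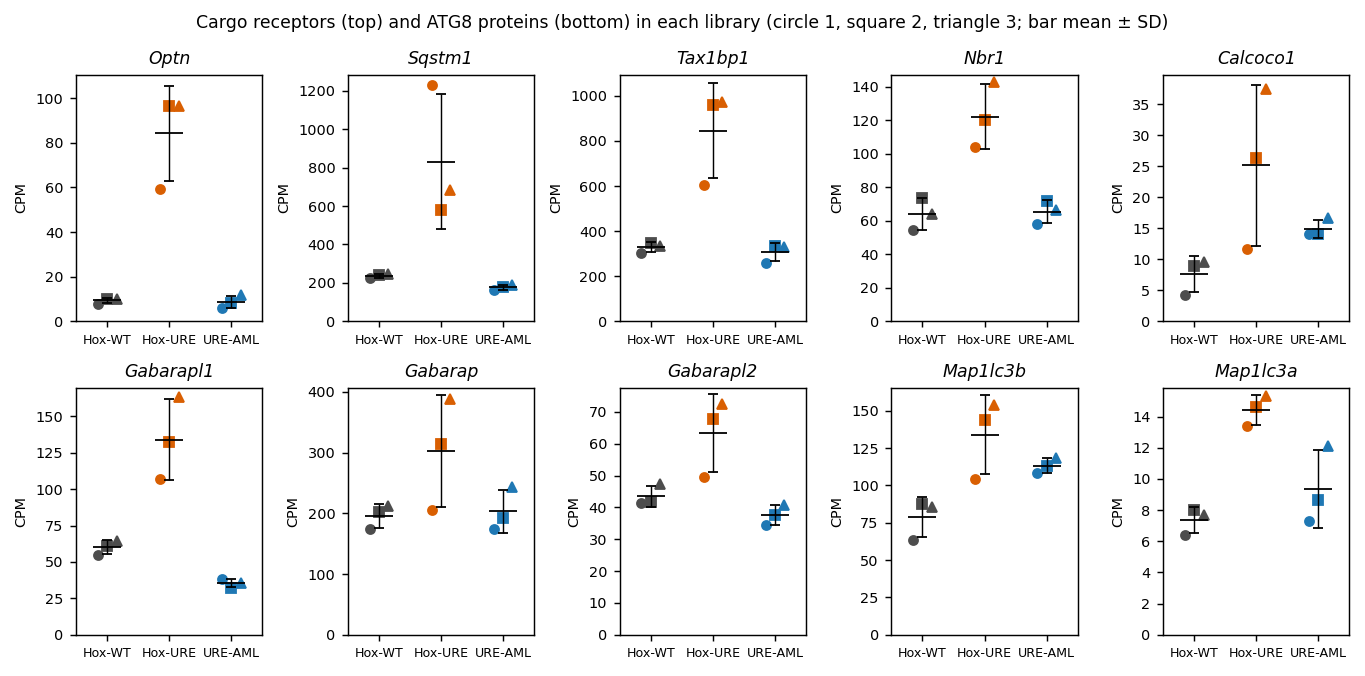
CPM of the 5 cargo receptors (top) and the 5 ATG8 genes (bottom) in each library of the 3 lines; each axis starts at 0, symbols mark library numbers, and bars give mean and SD over 3 libraries. *Optn* lies between 59.5 and 96.7 CPM in Hox-URE and below 12 CPM in every other library.

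The cargo receptors had the highest median log2 fold change of the 9 steps in Hox-URE relative to Hox-WT, 1.72. Other receptors, listed apart from the members and with 9 genes tested, had a median of 0.2 in the same comparison. Among them *Ccpg1* and *Fundc2* were called higher, *Phb2* was called lower and 6 were not called. The high median thus holds for the listed cargo receptors and not for autophagy receptors in general. *Optn* (ENSMUSG00000026672, chr2:5020642-5064051 of GRCm38, minus strand) encodes optineurin, a receptor for ubiquitinated mitochondria and bacteria. It had 7.95, 10.2 and 10.1 CPM in Hox-WT, 59.5, 96.7 and 96.4 CPM in Hox-URE and 6.10, 8.37 and 11.7 CPM in URE-AML. Every Hox-URE library lay above all 6 others, and Hox-WT and URE-AML overlapped. *Optn* was 8.92-fold higher in Hox-URE than in the Hox-WT line (log2 3.16 ± 0.26, SE, edgeR adjusted p = 5.66e-06) and 9.64-fold lower in URE-AML than in the Hox-URE line (log2 -3.27 ± 0.27, edgeR adjusted p = 3.18e-06). Between URE-AML and Hox-WT the log2 fold change was -0.11 ± 0.26 (edgeR adjusted p = 0.734).

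*Sqstm1* (ENSMUSG00000015837, chr11:50199366-50210827 of GRCm38, minus strand) encodes p62, the receptor for ubiquitinated aggregates. It had 226, 239 and 245 CPM in Hox-WT, 1230, 577 and 681 CPM in Hox-URE and 164, 180 and 189 CPM in URE-AML. No 2 lines overlapped, and library 1 of Hox-URE was the highest for this gene, whereas it was the lowest of its line for *Optn*, *Tax1bp1*, *Nbr1* and *Calcoco1*. The log2 fold change in Hox-URE relative to Hox-WT was 1.81 ± 0.24 (edgeR adjusted p = 1.32e-04), and 1.40 without that library (edgeR adjusted p = 2.79e-06). URE-AML was lower than Hox-URE by a log2 difference of -2.22 ± 0.24 (edgeR adjusted p = 2.69e-05) and was not called relative to Hox-WT (-0.41 ± 0.23, edgeR adjusted p = 0.153). Per length it had the highest mean of the 44 members in Hox-URE, at 247 CPM per kb, and had 70.5 CPM per kb in Hox-WT and 53.0 CPM per kb in URE-AML. The rank in Hox-URE rests on its high library 1, since in library 3 *Gabarap* was higher per length.

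*Tax1bp1*, a receptor for aggregates and bacteria that is recruited by *Nbr1*, was higher in Hox-URE as well. It had 304, 349 and 334 CPM in Hox-WT, 605, 961 and 972 CPM in Hox-URE and 260, 334 and 328 CPM in URE-AML, so that Hox-WT and URE-AML overlapped and Hox-URE lay above both. Hox-URE was higher than Hox-WT by a log2 difference of 1.36 ± 0.18 (edgeR adjusted p = 1.35e-04) and URE-AML lower than Hox-URE by -1.46 ± 0.18 (edgeR adjusted p = 6.55e-05). *Nbr1*, a partner of p62 in aggregate clearance, had 54.5, 73.5 and 64.0 CPM in Hox-WT, 104, 120 and 143 CPM in Hox-URE and 58.2, 71.7 and 66.6 CPM in URE-AML. Its log2 fold changes were 0.93 ± 0.15 in Hox-URE relative to Hox-WT and -0.90 ± 0.15 in URE-AML relative to Hox-URE (edgeR adjusted p = 4.29e-04 and 4.33e-04).

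*Calcoco1*, a receptor for the endoplasmic reticulum and the Golgi, was the most variable member within Hox-URE by SD relative to the mean. It had 4.31, 8.86 and 9.65 CPM in Hox-WT, 11.7, 26.3 and 37.5 CPM in Hox-URE and 14.1, 14.1 and 16.6 CPM in URE-AML. Both URE-deleted lines lay above Hox-WT, by a log2 difference of 1.72 ± 0.40 in Hox-URE (edgeR adjusted p = 0.00452) and 0.97 ± 0.40 in URE-AML (edgeR adjusted p = 0.0581, not called). The latter difference was called under 6 of 19 alternatives, among them DESeq2 (adjusted p = 0.0237) and the fit without library 1 of Hox-URE (edgeR adjusted p = 0.0101), with adjusted p between 0.00816 and 0.209 in all 19. *Calcoco1* lies on chromosome 15, whose median log2 fold change is given above.

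Markers of other lineages also differed between the lines, in directions that varied by list. The summed level of 5 mast cell and basophil markers was 373 to 732 CPM in Hox-WT, 1400, 3330 and 5650 CPM in Hox-URE libraries 1 to 3 and 24.9 to 55.1 CPM in URE-AML. Of the 4 that were tested 3 were higher in Hox-URE than in the Hox-WT line, and *Fcer1a*, a defining marker, was at or under 3 counts in all libraries of both Hox lines. Of 11 neutrophil granule markers 8 were lower in Hox-URE than in the Hox-WT line, with a median log2 fold change of -5.11 over the list, and *Lcn2* was higher. Of 6 monocyte markers 5 were lower, with a median of -5.7, and *Ccr2* was higher, at 885 ± 49.7 CPM in Hox-URE and 12.7 ± 1.92 CPM in Hox-WT. The sums of both lists therefore rest on few genes, with *Ctsg* at 3330 ± 738 CPM in Hox-URE. Of 5 megakaryocyte markers 2 were higher and 1 lower in Hox-URE. In the same comparison 21.3% of all genes tested were called higher and 15.9% lower. Megakaryocyte markers summed to 6.37 to 15.4, 16.5 to 51 and 1.94 to 5.15 CPM in the 3 lines, the monocyte markers to 98.3 to 230, 842 to 942 and 602 to 1190 CPM, and the neutrophil granule markers to 6140 to 9380, 3520 to 4680 and 11700 to 26500 CPM. Erythroid markers reached at most 22.4 CPM and lymphoid markers at most 3.29 CPM in any library. The part of any of these in the differences of autophagy genes was not tested.

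Among mitophagy genes, the receptor *Bnip3* was lower in Hox-URE and higher in URE-AML than in the Hox-WT line. It (ENSMUSG00000078566, chr7:138890836-138909519 of GRCm38, minus strand) acts in the outer mitochondrial membrane and is known as a target of hypoxia-inducible factors (HIF). *Bnip3* had 26.4, 27.7 and 25.9 CPM in Hox-WT, 12.2, 13.1 and 15 CPM in Hox-URE and 44.1, 53.3 and 30.2 CPM in URE-AML. No 2 lines overlapped. It was lower in Hox-URE than in the Hox-WT line by a log2 difference of -1.0 ± 0.19 (edgeR adjusted p = 0.00127) and higher in URE-AML than in the Hox-URE line by 1.67 ± 0.19 (edgeR adjusted p = 3.48e-05). It was called higher in URE-AML than in the Hox-WT line at a log2 difference of 0.67 ± 0.18 (edgeR adjusted p = 0.00904), but not without library 2 of URE-AML, where the log2 fold change of 0.48 was under the threshold.

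*Bnip3l*, its paralogue, which clears mitochondria from maturing red cells, had 55.2, 78.6 and 75.1 CPM in Hox-WT, 65.6, 99.5 and 95.8 CPM in Hox-URE and 122, 147 and 164 CPM in URE-AML. The URE-AML libraries lay above the 6 others and the Hox lines overlapped. It was higher in URE-AML than in the Hox-WT line by a log2 difference of 1.05 ± 0.19 and than in the Hox-URE line by 0.73 ± 0.19 (edgeR adjusted p = 7.33e-04 and 0.00644), the second of which was lost without library 1 of Hox-URE, at 0.56. *Bnip3* made up 37.0 to 44.9% of the level per length of this pair in Hox-WT and 18.3 to 24.0% in Hox-URE, while in URE-AML the share was 38.0, 38.2 and 23.9%.

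Of 16 other HIF target genes tested, Hox-URE had 3 higher and 3 lower than Hox-WT (37.5%, where 37.2% of all genes were called). URE-AML had 6 higher and 3 lower than Hox-WT (56.2%, where 43.2% of all genes were called), and 8 higher and 1 lower than Hox-URE (56.2%, where 42.7% were). *Pdk1*, which limits pyruvate entry into mitochondria, had 74.9 ± 1.43, 6.92 ± 1.72 and 41.0 ± 8.33 CPM in Hox-WT, Hox-URE and lastly URE-AML. The 17 genes of the list, 1 of them not tested, summed to 2870 to 3140, 2910 to 3490 and 4050 to 4190 CPM in the 3 lines. The part of HIF in the levels of *Bnip3* and *Bnip3l* was not tested.

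*Pink1*, the kinase that marks damaged mitochondria, had 22.1, 35.2 and 34.1 CPM in Hox-WT, 47.7, 78 and 72.2 CPM in Hox-URE and 21.3, 31.6 and 27.9 CPM in URE-AML. Hox-URE lay above both other lines, by a log2 difference of 1.11 ± 0.23 from Hox-WT (edgeR adjusted p = 0.00254), and URE-AML was lower than Hox-URE by -1.29 ± 0.24 (edgeR adjusted p = 8.78e-04). *Fundc1*, a further mitochondrial receptor, was not called and had log2 fold changes between -0.05 and 0.15.

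For fusion, *Stx17*, the SNARE protein that joins autophagosomes to lysosomes, had 13.1, 15.7 and 14.7 CPM in Hox-WT, 9.32, 10.2 and 11.8 CPM in Hox-URE and 24.1, 18.6 and 25.1 CPM in URE-AML. No 2 lines overlapped, and it was higher in URE-AML than in the Hox-URE line by a log2 difference of 1.12 ± 0.15 (edgeR adjusted p = 1.37e-04) and than in the Hox-WT line by 0.64 ± 0.15 (edgeR adjusted p = 0.00424). The latter call was lost without library 3 of URE-AML or library 1 of Hox-WT, at log2 fold changes of 0.56 and 0.57. *Epg5*, a tether for fusion, was not called and had 24.8 to 35.2 CPM over all libraries.

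**Figure D3:**
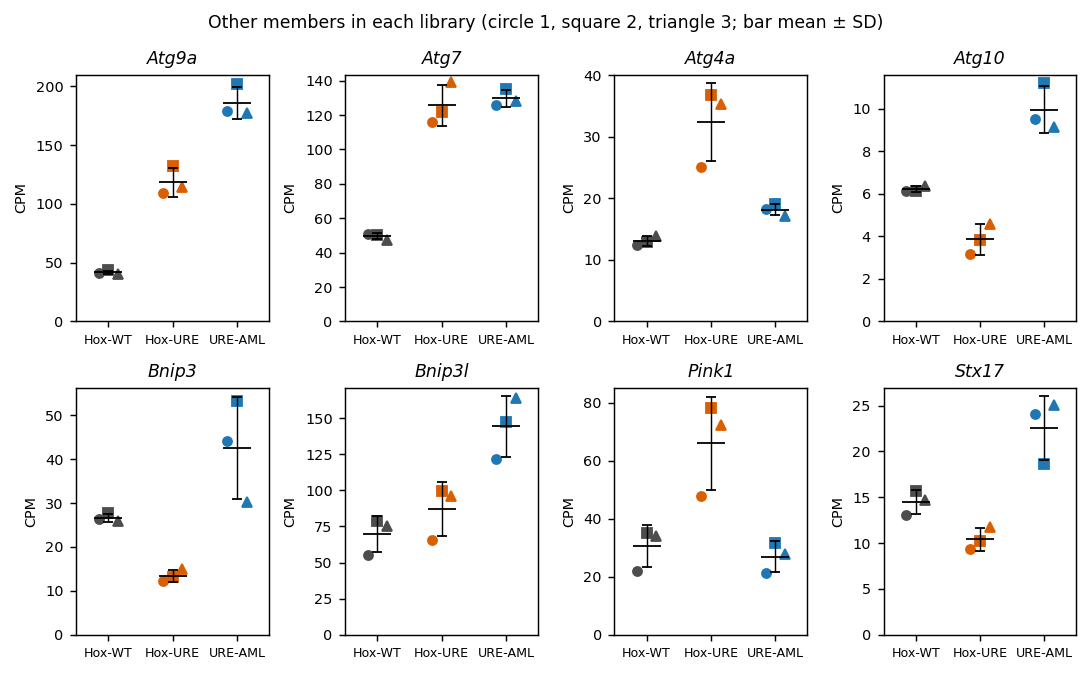
CPM of 8 members of other steps in each library of the 3 lines, with mean and SD over 3 libraries; axes start at 0. *Atg9a* and *Atg7* are higher in both URE-deleted lines than in the Hox-WT line, *Atg10*, *Bnip3* and *Stx17* have their lowest libraries in Hox-URE, and *Bnip3l* its highest in URE-AML.

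**Figure D4:**
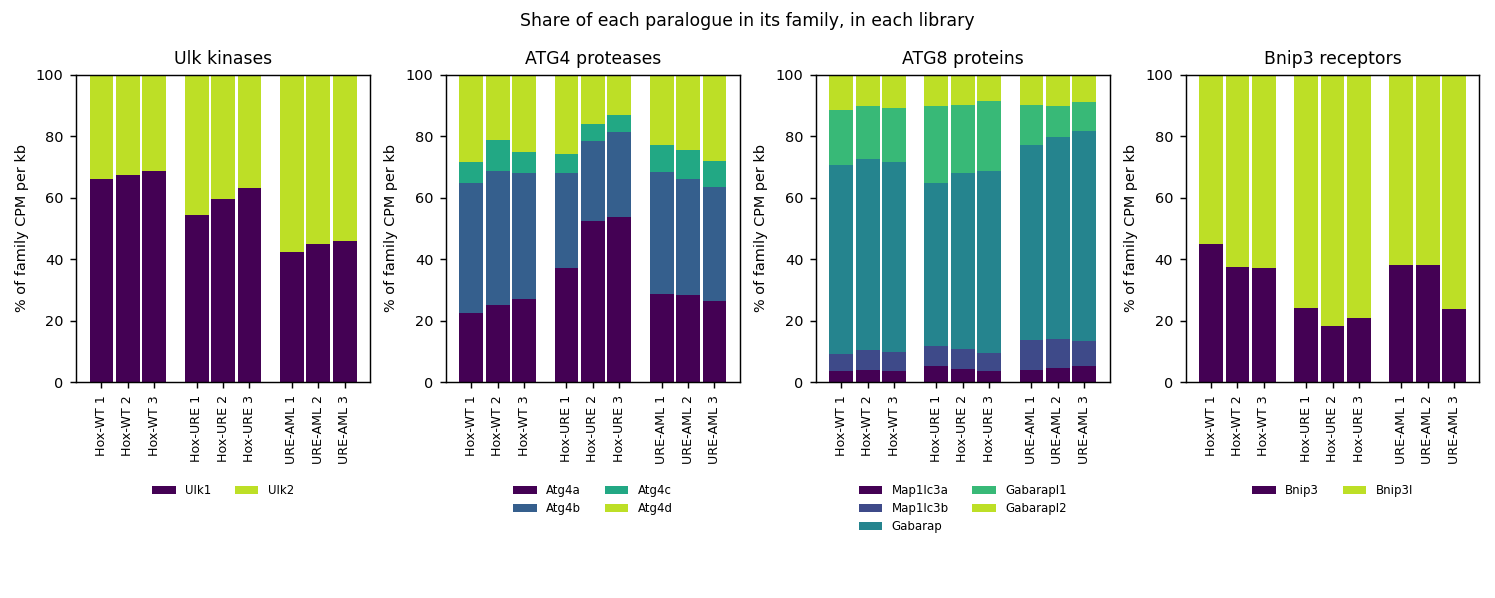
Share of each paralogue in the summed CPM per kb of its family, as stacked bars for every library of the 3 lines. The *Ulk1* share is 65.9 to 68.7% for Hox-WT, 54.2 to 63.1% for Hox-URE and 42.3 to 45.9% for URE-AML.

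Balance between paralogues was compared as the share of a gene in the level per length of its family. *Ulk1* held 67.4 ± 1.39% of the *Ulk1* and *Ulk2* level in Hox-WT, 59.0 ± 4.49% of it in Hox-URE and 44.4 ± 1.88% of it in URE-AML (SD, n = 3), and no 2 lines overlapped. Of 19 shares in 7 families, 14 did not overlap between Hox-URE and Hox-WT, 9 between URE-AML and Hox-WT and 14 between URE-AML and Hox-URE. These counts are per length of merged exons, and were 13, 11 and 14 per length of the longest transcript and 13, 9 and 13 without length scaling. Without length scaling the shares of *Gabarap* in both URE-AML comparisons and of *Atg4c* in Hox-URE relative to Hox-WT overlapped. Each non-overlapping share had the smallest exact two-sided permutation p that 3 libraries against 3 allow, 0.1, and shares of one family are not independent. In families that are pairs, such as *Ulk1* and *Ulk2*, the shares mirror each other and both are counted. Shares were not computed for families outside the members, so these counts have no background.

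Promoters were read to show the sequence at the starts of 5 members with large differences, chosen after their values were seen. RefSeq promoter windows of GRCm38.p6, from 250 bases before to 50 bases after the annotated start, were matched by symbol, and 42 windows of 36 members were used. Windows of *Atg12*, *Pik3c3*, *Atg16l1*, *Becn1*, *Map1lc3a*, *Rb1cc1*, *Bnip3l* and *Epg5* were not used here. By the GENCODE annotation 6 windows lay over 1000 bases from the start of the gene, those of *Atg14*, *Atg4b*, *Atg7* and *Wipi2*, 1 of *Atg4a* and 1 of *Vmp1*. The receptors *Optn* (chr2:5064068-5064367), *Sqstm1* (chr11:50210771-50211070) and *Calcoco1* (chr15:102722129-102722428) were chosen for their differences in Hox-URE, *Atg9a* (chr1:75191961-75192260) for its level in both URE-deleted lines, and *Bnip3* (chr7:138909457-138909756) for its opposite directions. All 5 lie on the minus strand and are printed 5′ to 3′ along the gene, with capitals marking matches on either strand to any of the 6 motifs named next.
Optn: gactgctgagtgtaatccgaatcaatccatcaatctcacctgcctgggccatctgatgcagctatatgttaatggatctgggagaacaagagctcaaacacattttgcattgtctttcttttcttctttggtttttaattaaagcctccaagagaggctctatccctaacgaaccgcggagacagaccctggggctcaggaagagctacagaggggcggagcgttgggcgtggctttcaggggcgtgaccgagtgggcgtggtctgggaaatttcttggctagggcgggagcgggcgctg
Sqstm1: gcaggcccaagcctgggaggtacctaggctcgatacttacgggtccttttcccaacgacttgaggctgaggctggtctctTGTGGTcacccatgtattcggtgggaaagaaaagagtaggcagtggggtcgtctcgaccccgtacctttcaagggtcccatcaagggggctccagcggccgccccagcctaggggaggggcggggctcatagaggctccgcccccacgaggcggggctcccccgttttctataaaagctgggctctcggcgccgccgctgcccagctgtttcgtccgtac
Calcoco1: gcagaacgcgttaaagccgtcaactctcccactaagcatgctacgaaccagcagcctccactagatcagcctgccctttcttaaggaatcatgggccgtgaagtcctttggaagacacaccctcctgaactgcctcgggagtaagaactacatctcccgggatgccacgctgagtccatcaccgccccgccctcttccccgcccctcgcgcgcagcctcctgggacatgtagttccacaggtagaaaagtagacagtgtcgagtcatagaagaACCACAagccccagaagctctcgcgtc
Atg9a: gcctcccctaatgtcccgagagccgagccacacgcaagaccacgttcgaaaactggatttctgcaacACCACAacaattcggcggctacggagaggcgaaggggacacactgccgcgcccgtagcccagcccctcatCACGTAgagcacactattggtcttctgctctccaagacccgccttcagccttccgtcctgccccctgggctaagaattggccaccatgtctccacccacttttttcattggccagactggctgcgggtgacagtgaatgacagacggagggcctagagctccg
Bnip3: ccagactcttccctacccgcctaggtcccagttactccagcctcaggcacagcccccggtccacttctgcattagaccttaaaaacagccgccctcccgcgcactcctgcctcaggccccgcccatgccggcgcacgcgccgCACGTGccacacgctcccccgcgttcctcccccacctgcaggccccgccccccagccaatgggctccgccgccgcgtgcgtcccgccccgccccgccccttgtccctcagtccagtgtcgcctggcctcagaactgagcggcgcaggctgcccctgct

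The motifs searched on both strands were TGTGGT of RUNX factors (ACCACA on the other strand), GAGGAAGT of PU.1, CACGTG, the E-box core of lysosomal and autophagy promoters bound by TFEB, TGACNNNGC of the antioxidant response, TACGTG of the hypoxia response and GTAAACA of FOXO factors. The RUNX letters were in 9 of the 42 windows (21.4%) and in 16.8% of all 32851 promoter windows. Windows with these letters belonged to *Atg13*, *Atg4b*, *Atg4c*, *Atg4d*, *Atg9a*, *Calcoco1*, *Nbr1*, *Sqstm1* and *Uvrag*, of which 5 were called in no comparison. CACGTG was in 5 of the 42 windows (11.9%) and in 7.15% of all windows, including that of *Bnip3* and that of *Atg7*, which lies at a RefSeq start 27999 bases inside the gene.

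The hypoxia response letters were in 5 windows (11.9%, against 3.23% of all), among them that of *Atg9a*, and the antioxidant letters in 7 windows (16.7%, against 12.4%), among them those of *Tax1bp1*, *Map1lc3b* and all 3 of *Vmp1*. The letters of PU.1 and FOXO factors were in 0 of the 42 windows, and in 3.2% and 3.65% of all. The *Optn* window held none of the 6. These counts describe letters in short windows of genes whose windows can overlap, and the hypoxia letters and the E-box share the core ACGTG, which was in 16 of the 42 windows (38.1%, against 19.6% of all), that of *Bnip3* included.

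Outside the 44, a list of 47 other pathway genes was compared in the same fit, of which 46 were tested. Hox-URE had 11 called above and 4 below Hox-WT (32.6%), URE-AML had 11 above and 5 below Hox-WT (34.8%) and 6 above and 10 below Hox-URE (34.8%), each below the share of all genes given above. The order turned under some alternatives. With at least 10 counts in every library, 33.3% of these genes and 31.9% of all genes were called in Hox-URE against Hox-WT. The largest called differences included *Deptor*, an inhibitor of mTOR, the kinase that holds autophagy off. It had 22.8 ± 1.40 CPM in Hox-WT, 3.23 ± 1.16 CPM in Hox-URE and 0.982 ± 0.226 CPM in URE-AML, and was lower in all 3 comparisons. The other 7 genes of that list, subunits of mTOR complex 1 and its upstream regulators *Rheb*, *Tsc1* and *Tsc2*, were not called in any.

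*Wdfy3*, which encodes the ALFY scaffold that links p62 to ATG5 on aggregates, had 756 to 863 counts in Hox-WT and 0 counts in all 6 libraries of the other lines. Against a floor of 3 counts per library the Hox-URE level was lower by at least 192-fold and that of URE-AML by at least 205-fold. *Bcl2*, which holds Beclin 1 inactive as well as blocking cell death, had 16.7 ± 2.83, 80.4 ± 7.52 and 30.9 ± 6.20 CPM in Hox-WT, Hox-URE and lastly URE-AML. Among fusion genes, *Tecpr1*, a tether on lysosomes, had 7.12 ± 1.38, 31.2 ± 7.09 and 18.3 ± 4.88 CPM, and *Vamp8*, a lysosomal SNARE, 277 ± 18.8, 480 ± 68.2 and 62.4 ± 8.02 CPM. *Retreg1*, a receptor for the endoplasmic reticulum, had 0.491 ± 0.0308, 0.569 ± 0.0832 and 15.7 ± 1.90 CPM, so that it was higher in URE-AML than in the Hox-WT line by 4.99 ± 0.22 on the log2 scale (edgeR adjusted p = 3.03e-08).

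Counts of the members were little shared with other annotated features. Exons on the same strand overlapped those of another gene in 3 members, *Atg9a*, *Pink1* and *Vmp1*. The overlapping gene of *Atg9a* held 0.409% as many counts as *Atg9a*, and those of *Pink1* and *Vmp1*, among them the microRNA gene *Mir21a*, held 0. The 2 rows named as pseudogenes of members, *Bnip3l-ps* and *Atg4a-ps*, held 2 and 3 counts over all 9 libraries.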

How the data were processed

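Stranded poly-A RNA libraries (NEBNext Ultra II Directional) of 3 lines, 3 per line, were measured. The deposited values are estimated counts per gene, which the authors made with salmon and tximport against GRCm38; the transcript release and any length scaling were not given in the sources used here. They were rounded to whole numbers. Genes were filtered with filterByExpr (minimum count 10), leaving 13082 and dropping 0.0499% of counts, and all 9 libraries were fitted in one quasi-likelihood model with TMM factors in edgeR 4.0.16 (limma 3.58.1, R 4.3.3). P-values were Benjamini-Hochberg adjusted over all genes tested, and calls needed an adjusted p below 0.05 together with a 1.5-fold difference. The study's methods used DESeq2, here an alternative (1.42.0). SE was the log2 fold change divided by the root of F. Means are given with the SD over 3 libraries.

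The script was tested on simulated data. Exact permutation tests used scipy 1.17.1. Gene coordinates came from GENCODE M21 on GRCm38, and promoters from RefSeq. Groups came from the labels, which number libraries 1 to 3 in each line without saying what the number marks. Correlations of same-numbered libraries' deviations from line means were 0.357, 0.175 and 0.254 between Hox-URE and Hox-WT. Libraries of these lines with the same number thus deviated together, and what they share is not known. The fit itself has no block, and blocked values are given where a call changed. Alternatives were other scalings, filters, tools and thresholds, the replicate block, and each library left out. Members and lists were chosen with earlier results of these data known. Every member could be named, with all libraries given for those called with an absolute log2 fold change of at least 1, and, of other lists, up to 4 called genes per comparison with the largest change, and *Bcl2*.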

Additional observations from a re-analysis of the deposited data

How the results depend on the processing

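Under 19 alternatives, 12 of the 17 members called in Hox-URE against Hox-WT, 3 of the 9 in URE-AML against Hox-WT (*Atg7*, *Atg9a* and *Bnip3l*) and 12 of the 19 in URE-AML against Hox-URE were called under every one, and 0 of them reversed. In that order, 8, 8 and 13 members not called were called under some alternative. With each library left out, 15 to 19, 8 to 13 and 18 to 23 members were called (34.1 to 43.2%, 18.2 to 29.5% and 40.9 to 52.3%), and of all genes 34.9 to 39%, 41.3 to 44.3% and 41 to 43.8%. With no fold change threshold 15 members (34.1%) were called in URE-AML against Hox-WT and 29 (65.9%) against Hox-URE, and of other pathway genes 25, 28 and 25 (54.3, 60.9 and 54.3%) in the 3 comparisons, where 53, 57.7 and 58% of all genes were called. With the fold of 1.5 tested itself, 3 and 12 members (6.82 and 27.3%) were called in the URE-AML comparisons and 9 other pathway genes (19.6%) in Hox-URE against Hox-WT, and of all genes 25.7, 32.8 and 31.9%. A filter of at least 10 counts in every library, which tests fewer genes, left 3200, 3602 and 3553 genes called (31.9, 35.9 and 35.5%). With no filter, which adds genes of low counts, the share of all genes was 23.4, 27.6 and 27.1%. Of members, which had all passed the filter, it was 40.9, 22.7 and 43.2%, and of other pathway genes 32.6, 34.8 and 34.8%. Library sizes alone moved the median of all genes by 0.109 on the log2 scale in URE-AML against Hox-URE, and 7 members were then called higher and 13 lower (45.5%), and of all genes 24.2% higher and 19.9% lower. The same scaling moved that median by -0.083 in Hox-URE against Hox-WT, with 13 members higher and 3 lower (36.4%), and 19.1% of all genes higher and 19.5% lower.

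A single library ended the call of *Atg2a* (Hox-URE 2) and *Atg10* (Hox-URE 1, log2 fold change -0.58) in Hox-URE against Hox-WT, of *Atg101* in URE-AML against Hox-WT (URE-AML 1, -0.58), and of *Map1lc3a* in URE-AML against Hox-URE (URE-AML 1 or 2, -0.48 and -0.58). Same-number correlations that involve URE-AML were lower than those between the Hox lines, at 0.04 to 0.155. The replicate block gave 7 higher and 3 lower members (22.7%, and 43.4% of all genes) for URE-AML against Hox-WT, where *Calcoco1* was added (1.07, edgeR adjusted p = 0.00816). It changed no other call than this and that of *Wipi1*.

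All reversals were in members not called; the cause was not tested. With upper-quartile scaling *Nbr1* was -0.003 and *Vmp1* -0.034 in URE-AML against Hox-WT, and with no filter *Atg13* was 0.006. With library sizes alone *Ulk1* was -0.057 and *Ambra1* -0.072 in Hox-URE against Hox-WT, and *Ulk2* 0.096, *Fundc1* 0.061 and *Epg5* 0.042 in URE-AML against Hox-URE. With a library left out, log2 fold changes that crossed 0 ran as follows. In Hox-URE against Hox-WT these were *Ulk1* -0.075 to 0.207, *Ambra1* -0.007 to 0.051, *Atg2b* -0.162 to 0.042, *Atg4c* -0.233 to 0.062 and *Atg4d* -0.4 to 0.12. For URE-AML against Hox-WT such values were *Atg13* -0.08 to 0.074, *Rb1cc1* -0.176 to 0.045, *Becn1* -0.07 to 0.002, *Atg14* -0.235 to 0.018, *Vmp1* -0.078 to 0.082, *Atg12* -0.372 to 0.004, *Gabarap* -0.093 to 0.15, *Nbr1* -0.071 to 0.144, *Optn* -0.385 to 0.094 and *Tax1bp1* -0.161 to 0.009. For URE-AML against Hox-URE such values were *Ulk2* -0.139 to 0.088, *Atg7* -0.017 to 0.12 and *Fundc1* -0.12 to 0.006.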
